A study of Mus musculus with 24 samples.

Results

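The 10 genes described here are the transcriptional coactivators YAP (Yap1) and TAZ (Wwtr1), their DNA-binding partners Tead1, Tead2, Tead3 and Tead4, and 4 genes widely used as readouts of them, Ctgf (also Ccn2), Cyr61 (also Ccn1), Ankrd1 and Amotl2. They were chosen by symbol, matched without regard to case, from 24034 gene symbols shared by the 3 deposited count tables, and each of the 10 was found in every table. In GRCm38 (mm10) with the GENCODE vM21 annotation all are protein-coding. Yap1 lies at chr9:7931999-8004596 and Wwtr1 at chr3:57455649-57575910, both on the minus strand. The TEAD genes lie at chr7:112679318-112906807 (Tead1, plus), chr7:45215753-45233644 (Tead2, plus), chr17:28331671-28350817 (Tead3, minus) and chr6:128224288-128300823 (Tead4, minus). The target genes lie at chr10:24595442-24598683 (Ctgf, plus), chr3:145646976-145649981 (Cyr61, minus), chr19:36111961-36120099 (Ankrd1, minus) and chr9:102716672-102733418 (Amotl2, plus). Counts cover whole genes, so no exon or UTR is singled out. The choice was made with the contrast of p27K high against p27K negative cells in view, and Ctgf was picked because it differed strongly between the lines. The gate changes of the 10 genes, and the Ctgf levels across lines, are therefore given as descriptions with no test.

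RNA was sequenced in bulk from mouse mammary carcinoma cells that had been sorted out of tumours. The lines were 4T07, D2A1 and EMT6, each transduced with mCherry and with mVenus-p27k, a fluorescent reporter built on the cell-cycle inhibitor p27. All groups shared the Balb/cJ host strain, injection of 250000 transduced cells into the mammary fat pad of females and harvest on day 14; the labels give no age for the mice, and each line is an established tumour cell line. From each of 4 tumours of each line, p27K high cells, which the labels call QCC (quiescent cancer cells), and p27K negative cells, called proliferative, gave a library each. There were thus 24 libraries from 12 tumours, with 4 p27K high and 4 p27K negative libraries per line. The tumours are numbered 1 to 4 in 4T07 and D2A1, and 0, 1, 2 and 4 in EMT6, as in the column names. D2A1, EMT6 and 4T07 were sequenced in runs of their own, so line and run cannot be told apart.

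YAP and TAZ carry signals from cell shape, matrix stiffness, cell contact and the Hippo kinases to the nucleus. When the kinases MST and LATS are active, YAP and TAZ are phosphorylated and held in the cytoplasm; when they are not, YAP and TAZ enter the nucleus, bind TEAD proteins and switch on genes for matricellular proteins and growth. Because this control acts on the proteins, transcript levels of Yap1 and Wwtr1 do not report their activity, and the target genes are commonly read in their place.

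TEAD proteins recognise the letters GGAATG, or CATTCC on the other strand. The promoter sequences of the 3 target genes that the RefSeq table of GRCm38.p6 holds are shown so that the TEAD letters can be seen in their context. Each runs 5′ to 3′ on the gene's own strand over the 250 bases before its RefSeq start site, with the TEAD letters in capitals. The windows are chr3:145649986-145650235 on the minus strand for Cyr61, chr19:36119845-36120094 on the minus strand for Ankrd1, and chr9:102717554-102717803 on the plus strand for Amotl2. The Ankrd1 and Amotl2 windows lie inside the GENCODE gene bounds given above, since the RefSeq start used here lies downstream of the outermost GENCODE start.
Cyr61: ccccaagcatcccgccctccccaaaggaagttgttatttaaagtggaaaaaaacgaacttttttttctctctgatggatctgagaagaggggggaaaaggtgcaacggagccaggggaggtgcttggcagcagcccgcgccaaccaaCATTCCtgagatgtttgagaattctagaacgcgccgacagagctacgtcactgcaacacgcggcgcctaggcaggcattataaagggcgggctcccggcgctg
Ankrd1: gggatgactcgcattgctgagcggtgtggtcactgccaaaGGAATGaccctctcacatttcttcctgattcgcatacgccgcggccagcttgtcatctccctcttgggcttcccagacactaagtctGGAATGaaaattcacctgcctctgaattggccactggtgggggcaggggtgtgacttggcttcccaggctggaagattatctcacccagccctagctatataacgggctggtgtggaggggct
Amotl2: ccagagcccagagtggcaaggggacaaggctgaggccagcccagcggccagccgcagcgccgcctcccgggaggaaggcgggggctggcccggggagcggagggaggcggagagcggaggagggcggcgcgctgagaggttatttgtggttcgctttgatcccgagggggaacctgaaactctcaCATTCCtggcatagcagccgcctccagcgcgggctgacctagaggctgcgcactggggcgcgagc
Cyr61 held the letters once, from -103 to -98 counted from the start site. Ankrd1 held them at -210 to -205 and again at -123 to -118, and Amotl2 at -65 to -60. Among 32851 promoter windows of the same length in the table, 12.6% held GGAATG on either strand, so a match is common. Of the 10 genes 7 had an entry; Yap1, Wwtr1 and Tead3 also held the letters and Tead2 did not. The SMAD letters CAGAC, on either strand, stood in the Ankrd1 and Yap1 windows and in 42.2% of all windows, while the AP-1 letters TGANTCA, found in 6.75%, and the serum response element CArG, found in 1.47%, stood in none of the 7 genes' windows. In Ankrd1 one of the SMAD matches shares a base with the TEAD match at -123. A match describes letters only, and Ctgf, Tead1 and Tead4 are named without a sequence.

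Total counts per library were 27887221 to 45460880 in 4T07 p27K high cells and 28961831 to 35197694 in 4T07 p27K negative cells, 6727594 to 20174767 and 1335433 to 15641189 in D2A1, and 13769682 to 20142013 and 16988365 to 17508301 in EMT6. The D2A1 p27K negative libraries of tumours 1, 2 and 3 were the shallowest, at 1335433, 2110563 and 1802042 counts. The gate was visible in the proliferation marker Mki67, which averaged 20.9, 16.9 and 13.6 CPM (counts scaled to library size) in p27K high cells of 4T07, D2A1 and EMT6, against 1796, 920.9 and 541.1 CPM in p27K negative cells. Cdkn1b, which encodes p27, rose by 0.89, 0.46 and 0.54 on the log2 scale (edgeR adjusted p = 0.000717, 0.00691 and 9.33e-06); the sources used here do not say whether reporter reads count towards Cdkn1b. The macrophage list fell in 4T07, with 7 of 7 tested markers lower and summed levels of 67.1 to 80.1 CPM in p27K high against 326 to 797 CPM in p27K negative cells. Ptprc, which encodes CD45, averaged 8.23 CPM in p27K high and 30.9 CPM in p27K negative 4T07 cells and stayed at or below 2.57 CPM in each library of the other lines. In bulk libraries such as these, fewer cells of a type and less RNA per cell cannot be told apart.

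Genes were called where the adjusted p (Benjamini-Hochberg, over all genes tested) lay below 0.05. Of the 10 genes, 4 were higher and 0 lower in p27K high cells of 4T07, where 22.1% of all genes tested were called higher and 23.6% lower. In D2A1, 0 were called higher and 2 lower, against 14.9% and 14.7% of all genes. In EMT6, 4 were called higher and 2 lower, against 24.1% and 25.1%. These calls come from the contrast used to choose the genes, and nothing is read from them. The median log2 change of the 10 genes was 0.10, -0.01 and 0.12 in 4T07, D2A1 and EMT6, beside -0.0033, 0.02 and 0.02 over all genes tested. Levels of p27K high and p27K negative cells did not overlap for 1 of the 10 in 4T07 (Ctgf), for 4 in D2A1 (Wwtr1, Tead2, Tead3 and Amotl2) and for 2 in EMT6 (Yap1 and Amotl2), where 38.3%, 33.5% and 36.5% of all shared genes tested did not overlap.

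**Figure D1:**
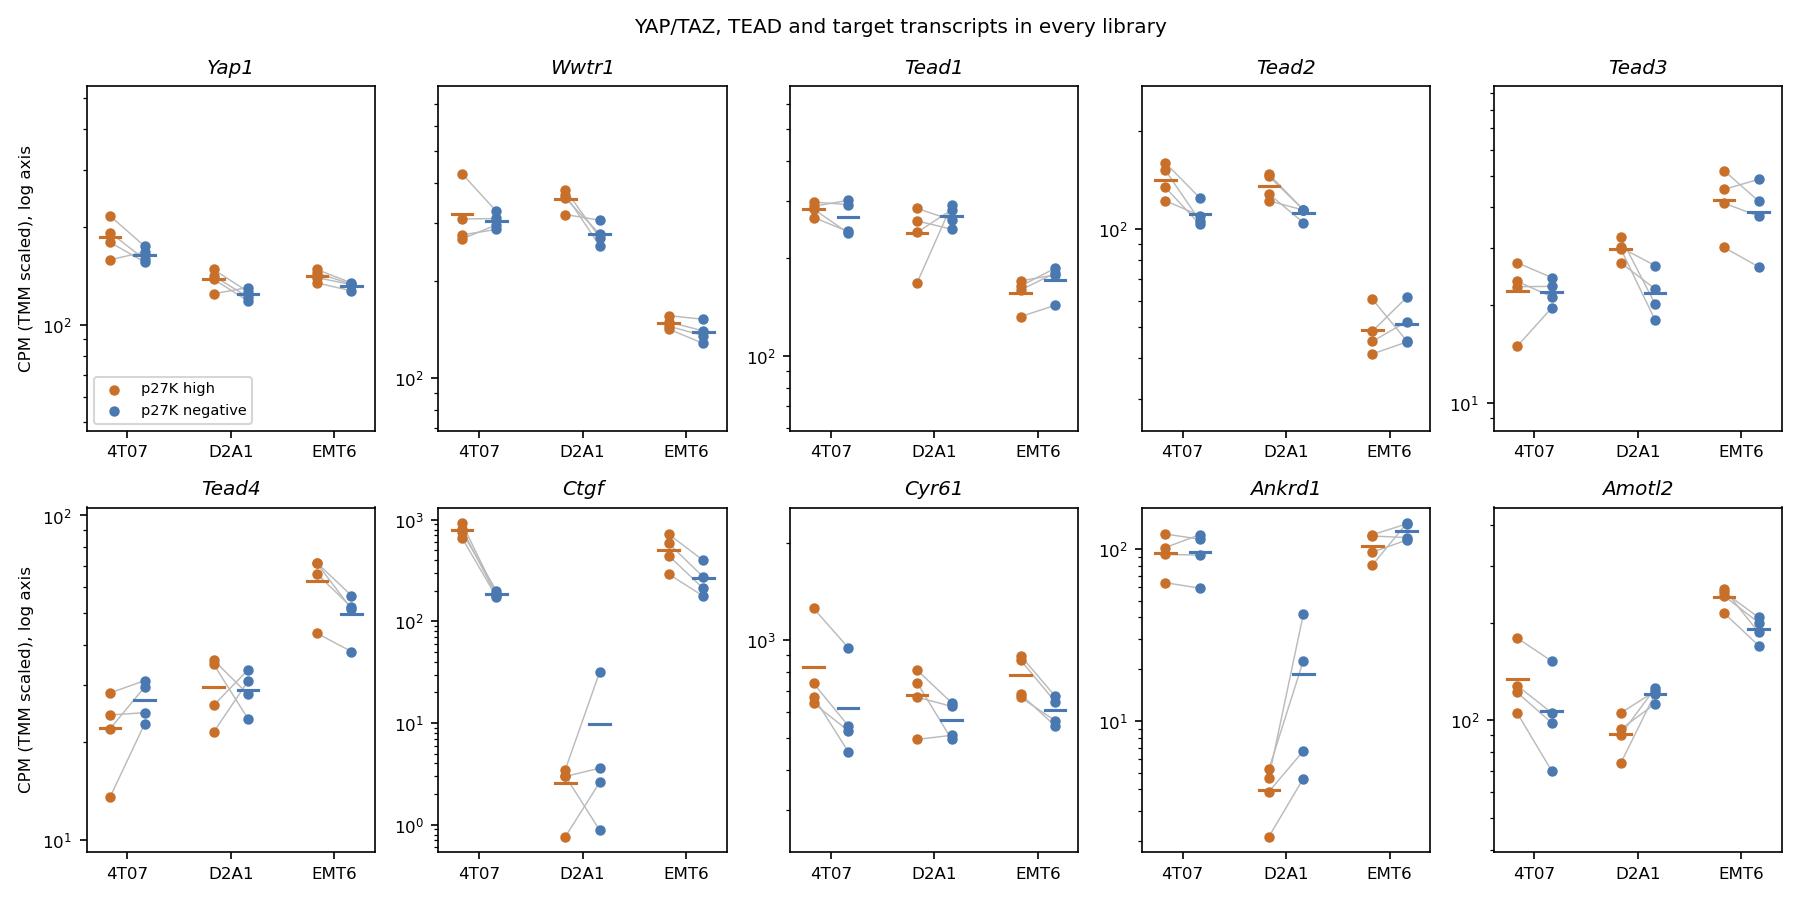
Level of each of the 10 genes in all 24 libraries, in CPM with TMM scaling on a log axis; grey lines join the 2 gates of a tumour and short bars are means of 4. Ctgf lies at 667.2 to 925.3 CPM in 4T07 p27K high cells and at 0.761 to 3.48 CPM in D2A1 p27K high cells, while Cyr61 stays between 454.5 and 1255.0 CPM everywhere.

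The coactivator transcripts differed little between the gates. Yap1 averaged 186.4 ± 24.2 CPM in p27K high and 164.1 ± 8.45 CPM in p27K negative 4T07 cells, 137.8 and 124.0 CPM in D2A1, and 141.5 and 131.8 CPM in EMT6 (SD, n = 4 each). It was higher in p27K high cells in 10 of 12 tumours, with log2 changes of 0.15 ± 0.08, 0.08 ± 0.11 and 0.10 ± 0.04 (SE) in 4T07, D2A1 and EMT6. Wwtr1, the TAZ gene, averaged 320.5 and 305.4 CPM in p27K high and negative cells of 4T07, 356.8 and 278.0 CPM in D2A1, and 147.8 and 138.8 CPM in EMT6. The D2A1 difference was the clearest: the p27K high libraries held 319.5 to 380.8 CPM and the p27K negative libraries 255.7 to 306.8 CPM, with a log2 change of 0.28 ± 0.12. In 4T07 only tumour 2 was higher, with 427.4 CPM in p27K high against 326.9 CPM in p27K negative cells. Set per kilobase of exon, which allows the 2 genes to be compared, Yap1 stood at 0.31 and 0.28 of the Wwtr1 level in 4T07 p27K high and negative cells, at 0.20 and 0.23 in D2A1 and at 0.49 and 0.49 in EMT6. By this measure Wwtr1 was the more abundant of the pair in all 24 libraries. The ratios depend on the exon lengths used, 9257 bases for Yap1 and 4779 for Wwtr1. In CPM not divided by length the 2 genes lay close in EMT6. Yap1 was the higher in the p27K negative library of EMT6 tumour 0, at 132.7 against 128.0 CPM.

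The TEAD genes encode the DNA-binding part of the complex and had a different leading member in EMT6 than in the other lines by mean share per kilobase of exon. In CPM not divided by length, Tead1 was the highest Tead gene in each group. The order of the shares thus depends on the exon lengths used, 13570 bases for Tead1, 4788 for Tead2 and 3598 for Tead4. Per kilobase of exon, Tead2 made up 49.3 ± 1.22% of the summed Tead level in 4T07 p27K high cells and 43.1 ± 0.79% in 4T07 p27K negative cells (SD, n = 4 each). In D2A1 its share was 48.6 ± 5.93% and 42.9 ± 1.73%. In EMT6 Tead4 had the highest mean share, with 38.2 ± 6.35% in p27K high and 32.2 ± 3.15% in p27K negative cells, while Tead1 held 25.5 ± 3.19% and 29.8 ± 3.98% and Tead2 22.6% and 24.8%. Tead4 did not lead in EMT6 tumour 0, where its share was 28.8% in p27K high cells, below Tead2 at 30.4% and Tead1 at 30.1%, and 28.6% in p27K negative cells, below Tead1 at 35.4%. Tead1 held between 25.5% and 36.8% in all 6 groups and Tead3 between 5.44% and 13.7%. The summed Tead level was 60.0 ± 5.73 CPM per kilobase in p27K high and 53.8 ± 4.45 in p27K negative cells of 4T07, 58.6 ± 5.58 and 54.6 ± 3.18 in D2A1, and 45.5 ± 3.75 and 42.8 ± 5.50 in EMT6, so the gates overlapped in their spread in each line.

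**Figure D2:**
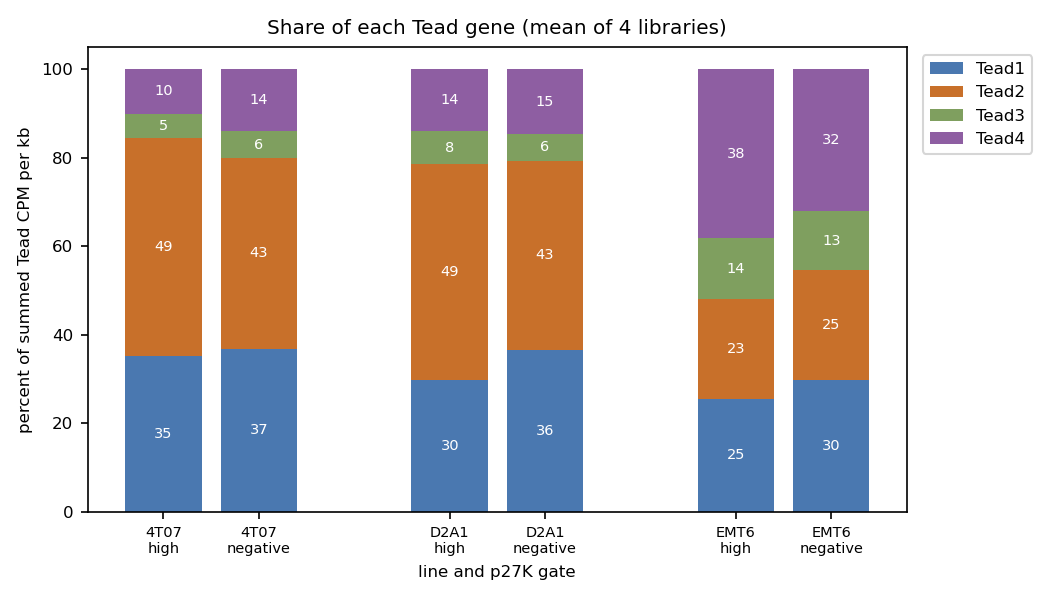
Stacked bars give the mean share, in percent of the summed CPM per kilobase, of Tead1 to Tead4 in the p27K high and negative cells of each line (4 libraries a bar). Tead2 has the highest mean share in 4T07 and D2A1 and Tead4 in EMT6.

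The gate changes of the TEAD genes went in different directions. Tead2 was 122.2 to 159.7 CPM in p27K high and 103.2 to 124.6 CPM in p27K negative 4T07 cells, higher in 4 of 4 tumours with a log2 change of 0.32 ± 0.08. In D2A1 it was also higher in 4 of 4, with no overlap, at 122.1 to 147.5 against 104.6 to 114.6 CPM, and in EMT6 in 1 of 4. Tead4 behaved in the opposite way in 4T07 and EMT6. Its levels were 28.4, 13.6, 24.3 and 22.0 CPM in p27K high cells of 4T07 tumours 1 to 4, against 31.0, 22.8, 24.7 and 29.6 CPM in p27K negative cells, lower in each. In EMT6 tumours 0, 1, 2 and 4 it was 43.3, 71.4, 66.0 and 71.2 CPM in p27K high against 38.1, 56.6, 52.2 and 51.5 CPM in p27K negative cells, higher in each. The Tead4 groups nevertheless overlapped in both lines, since tumours differed among themselves, and its log2 changes were -0.35 ± 0.13 in 4T07, -0.11 ± 0.18 in D2A1 and 0.33 ± 0.06 in EMT6. Tead1 was lower in p27K high cells in 4 of 4 EMT6 tumours, with a log2 change of -0.13 ± 0.05, and in 2 of 4 D2A1 tumours, where tumour 3 alone stood at 168.3 CPM in p27K high against 291.9 CPM in p27K negative cells. Tead3, the least abundant Tead gene per length in each group, was 27 to 32.3 CPM in p27K high against 18.0 to 26.4 CPM in p27K negative D2A1 cells, higher in 4 of 4 with a log2 change of 0.35 ± 0.16.

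Ctgf, a secreted matricellular protein gene and a direct YAP/TEAD target, had the largest gate change of the 10 genes in 4T07. It was 758.1, 667.2, 815.5 and 925.3 CPM in p27K high cells of 4T07 tumours 1 to 4, against 201.2, 174.9, 180.7 and 186.9 CPM in p27K negative cells. No library overlapped the other gate, each tumour was higher by 1.91 to 2.31 on the log2 scale, and the fitted change was 2.05 ± 0.09, or 4.15-fold. In EMT6 tumours 0, 1, 2 and 4 Ctgf was 291.5, 584.1, 442.9 and 720.1 CPM in p27K high cells, against 177.4, 274.0, 210.9 and 397.9 CPM in p27K negative cells. The EMT6 gates overlapped, because tumour 4 was high in both and tumour 0 low in both, but within tumours the change was even, from 0.72 to 1.09, and the fitted change was 0.93 ± 0.06, or 1.91-fold. The summed level of the fibroblast markers was also higher in p27K high cells of both lines. It was 1600 to 2320 CPM in p27K high against 586 to 767 CPM in p27K negative 4T07 cells, and 6270 to 8190 against 4970 to 6570 CPM in EMT6. Of the 8 fibroblast markers, 2 of 7 tested rose and 2 fell in 4T07, and 5 of 6 tested rose in EMT6; none was at 0. In 4T07 the sum was carried by Dcn, at 1206 against 276.6 CPM, and Pdgfra, at 748.4 against 327.8 CPM. The collagen genes Col1a1, at 22.4 against 28.8 CPM, and Col1a2, at 5.06 against 11.4 CPM, were low in both gates. Pdpn (2.55 against 11.4 CPM), Thy1 (0.44 against 1.20 CPM) and Lum (0.17 against 0.29 CPM) were also lower on average in p27K high cells, and Fap (1.64 against 1.11 CPM) was higher. The 6 pericyte and smooth muscle markers summed to 46.6 to 92.8 CPM in p27K high against 42.6 to 45.6 CPM in p27K negative 4T07 cells, with 2 of 4 tested higher, and to 150 to 320 against 102 to 237 CPM in EMT6, with 2 of 3 tested higher; none was at 0. Most of that sum was Pdgfrb, and Rgs5 and Myh11 averaged at most 1.20 CPM in both lines. The part of these markers in the Ctgf values was not tested.

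In D2A1 Ctgf was close to undetected. Its raw counts were 69, 49, 20 and 14 in p27K high cells of tumours 1 to 4, or 3.48, 3.01, 2.98 and 0.76 CPM, against 46, 2, 7 and 43 counts in p27K negative cells, or 32.0, 0.88, 3.597 and 2.61 CPM. The gates overlapped and the p27K negative library of tumour 1 alone stood above 4 CPM. The fitted log2 change was -1.52 ± 0.57 over all 4 tumours and -0.56 without tumour 1, so no direction can be read for D2A1. Mean Ctgf in 4T07 was 309 times that in D2A1 among p27K high cells and 19.0 times among p27K negative cells, and in EMT6 it was 199 times and 27.1 times. These ratios of mean CPM rest on 152 and 98 summed D2A1 counts. The fitted folds among p27K negative cells were 32.8 for 4T07 over D2A1 and 47.1 for EMT6 over D2A1. Among p27K negative cells the fitted log2 difference of 4T07 minus D2A1 was 5.03 ± 0.55, 6.18 without D2A1 tumour 1 and 4.16 without D2A1 tumour 4, and that of D2A1 minus EMT6 was -5.56 ± 0.55, -6.70 and -4.68. In order of level, p27K high cells ran 4T07 at 791.5 ± 108 CPM, EMT6 at 509.7 ± 184 CPM and D2A1 at 2.56 ± 1.22 CPM, with 4T07 and EMT6 overlapping in their libraries. Among p27K negative cells EMT6, at 265.1 ± 97.2 CPM, and 4T07, at 185.9 ± 11.3 CPM, overlapped as well, and D2A1 averaged 9.76 ± 14.8 CPM (SD, n = 4 each). The order of 4T07 and EMT6 thus turned between the gates, within the spread of the EMT6 libraries.

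Cyr61, the sister matricellular gene of Ctgf and another direct YAP/TEAD target, showed neither the line difference nor the large gate change. In p27K high cells it was 1255.0, 639.8, 669.9 and 736.9 CPM in 4T07 tumours 1 to 4, against 950.8, 527.5, 454.5 and 546.5 CPM in p27K negative cells. Tumour 1 was the highest in both gates. The D2A1 values were 810.0, 668.5, 740.7 and 495.4 CPM in p27K high against 642.7, 626.3, 495.8 and 509.8 CPM in p27K negative cells, and the EMT6 values 682.4, 898.3, 668.2 and 870.0 CPM against 546.1, 673.6, 566.1 and 648.0 CPM. Cyr61 was higher in p27K high cells in 11 of 12 tumours, the exception being D2A1 tumour 4, but the groups overlapped in each line. Its log2 changes were 0.39 ± 0.07 in 4T07, 0.16 ± 0.13 in D2A1 and 0.35 ± 0.05 in EMT6. Cyr61 was thus abundant in D2A1 cells that had almost no Ctgf: per kilobase, Ctgf stood at 0.73 and 0.23 of Cyr61 in p27K high and negative 4T07 cells, 0.45 and 0.30 in EMT6, and 0.0025 and 0.011 in D2A1.

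Ankrd1, which encodes an ankyrin repeat protein first known from heart muscle and is a YAP/TEAD target in many cell types, was not higher in p27K high cells of any line on average. In 4T07 it was 102.0, 122.2, 63.7 and 93.0 CPM in p27K high cells of tumours 1 to 4, against 121.2, 114.0, 59.1 and 92.1 CPM in p27K negative cells, with a log2 change of -0.03 ± 0.09. The paired values lay close together while tumours differed, tumour 3 being lowest in both gates. In EMT6 it was 80.6, 119.0, 120.9 and 95.7 CPM in p27K high against 141.3, 116.5, 140.0 and 112.7 CPM in p27K negative cells, lower in 3 of 4 tumours, with a log2 change of -0.31 ± 0.11. In D2A1 it was 4.68, 5.23, 3.88 and 2.12 CPM in p27K high cells of tumours 1 to 4, against 41.7, 22.4, 6.68 and 4.62 CPM in p27K negative cells. It was lower in p27K high cells of 4 of 4 D2A1 tumours, with a log2 change of -2.01 ± 0.34, although the highest p27K high library overlapped the lowest p27K negative one. Without tumour 1 the change was -1.50.

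**Figure D3:**
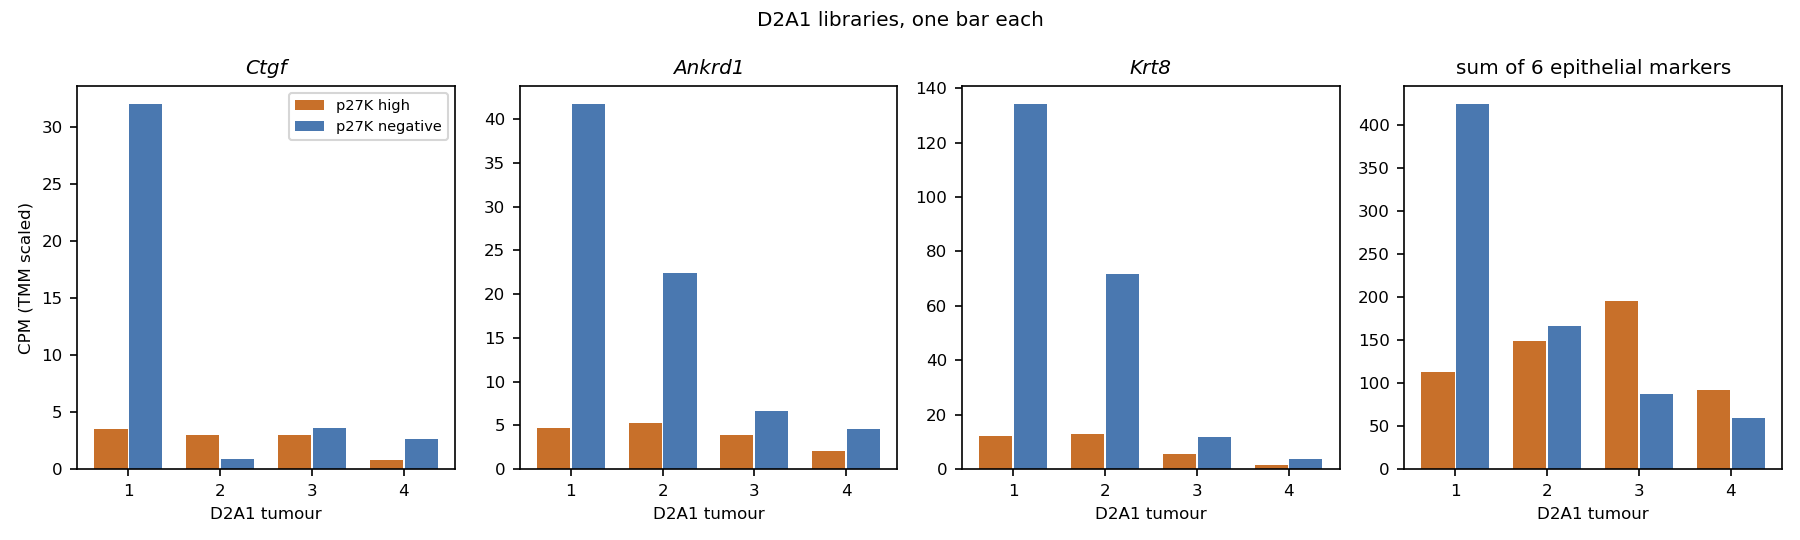
Ctgf, Ankrd1, Krt8 and the summed level of 6 epithelial markers in the D2A1 libraries, in CPM with TMM scaling; each bar is 1 library, with p27K high left of p27K negative within a tumour. The p27K negative library of tumour 1 is the highest in each panel, at 32.0, 41.7, 134.1 and 424.5 CPM.

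Some epithelial markers moved with these D2A1 values and others did not. The 6 markers summed to 112.8, 149.4, 196.0 and 91.6 CPM in p27K high cells of tumours 1 to 4, against 424.5, 166.6, 86.8 and 59.4 CPM in p27K negative cells. Krt8, a keratin gene, had the gate changes nearest to those of Ankrd1 over the 12 tumours (root mean square difference 0.343 on the log2 scale, among 8902 genes); it was singled out after the values were seen. It stood at 12.1, 12.7, 5.52 and 1.47 CPM in p27K high cells of D2A1 tumours 1 to 4, against 134.1, 71.6, 11.8 and 3.53 CPM in p27K negative cells. Cdh1, which encodes E-cadherin, was 75.7 CPM in the p27K negative library of tumour 1 and at most 3.32 CPM in the other D2A1 libraries, with 0 counts in p27K high cells of tumour 4 and p27K negative cells of tumour 2. Krt18, the most abundant of the 6 in D2A1, was 95.9, 136.2, 189.3 and 90.1 CPM in p27K high cells of tumours 1 to 4, against 198.0, 94.5, 71.9 and 55.5 CPM in p27K negative cells, higher in p27K high cells in tumours 2, 3 and 4. Of the 2 epithelial markers tested in D2A1, 0 rose and 1 fell. The endothelial markers summed to 0.308 to 3.75 CPM in p27K high and 7.71 to 25 CPM in p27K negative cells, with 2 of 2 tested lower. The fibroblast markers summed to 585 to 714 and 534 to 649 CPM, but 4 of 7 tested fell and 1 rose. Col1a2 averaged 10.75 and 119.2 CPM and Col1a1 69.1 and 165.9 CPM, while Pdgfra averaged 519.9 and 233.2 CPM. The pericyte and smooth muscle markers summed to 255 to 394 and 114 to 167 CPM, with 1 of 3 tested higher. Most of that sum was Pdgfrb, at 310.1 and 132.9 CPM. The part of cell mixture in the D2A1 values was not tested, and tumours 1 to 3 are also the 3 shallowest p27K negative libraries.

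Amotl2 encodes an angiomotin family protein that binds YAP and is itself a YAP target, so it acts as feedback. It changed in opposite directions between the lines. In 4T07 it was 179.5, 128.0, 105.4 and 121.9 CPM in p27K high cells of tumours 1 to 4, against 152.3, 105.6, 69.9 and 98.3 CPM in p27K negative cells. In EMT6 it was 214.2, 241.9, 253.9 and 248.6 CPM in p27K high against 170.1, 200.2, 187.0 and 207.8 CPM in p27K negative cells, with no overlap. Each tumour of these 2 lines was higher in p27K high cells, and the log2 changes were 0.33 ± 0.08 and 0.33 ± 0.05. In D2A1 the values were 105.4, 93.9, 73.7 and 90.3 CPM in p27K high against 123.0, 112.5, 120.8 and 125.6 CPM in p27K negative cells. Each D2A1 tumour was lower in p27K high cells, with no overlap and a log2 change of -0.49 ± 0.12. Unlike Ctgf and Ankrd1, Amotl2 was well counted in D2A1, with 5775 summed counts in p27K high and 2734 in p27K negative cells.

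**Figure D4:**
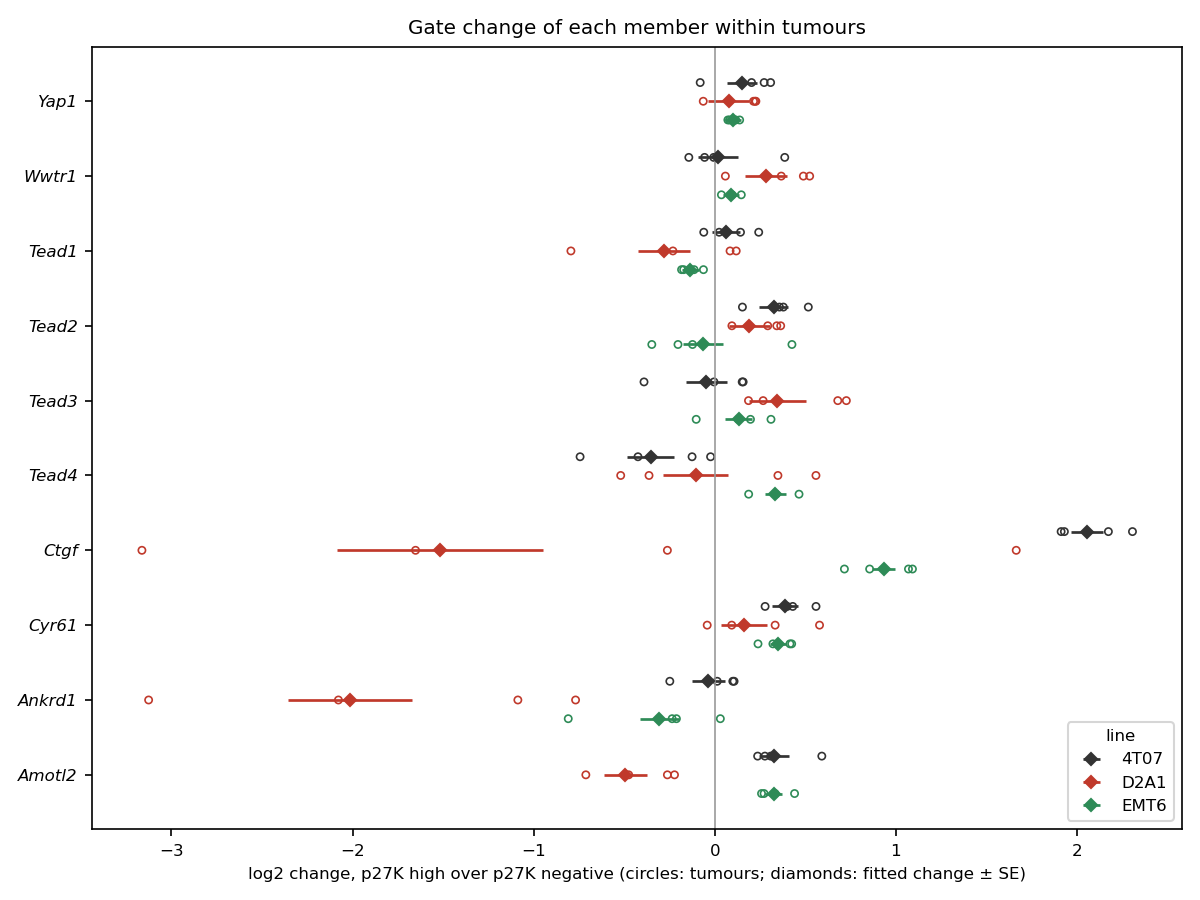
Log2 change of p27K high over p27K negative cells for each gene and line; open circles are tumours and diamonds with bars the fitted change with its SE. Amotl2 lies right of 0 in all 4T07 and EMT6 tumours and left of 0 in all D2A1 tumours, and Cyr61 lies right of 0 in 11 of 12.

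The genes whose gate changes were most like those of Cyr61 over the 12 tumours were Atf3, Eif3h and Ppp1r15a, with root mean square differences of 0.108, 0.121 and 0.122 on the log2 scale, where the median of 8902 genes was 0.503. Atf3 is an immediate early and stress transcription factor and Ppp1r15a encodes GADD34, a phosphatase subunit induced by stress. For Ctgf the nearest were Thbs2, which encodes thrombospondin 2, Fgf11 and Add3, at 1.15, 1.22 and 1.3 against a median of 1.79. The Ctgf values include the few D2A1 counts given above.

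Levels between lines in p27K negative cells are outside the gate contrast and were tested for the 9 genes other than Ctgf. Between 4T07 and D2A1, 2 of 9 were higher in 4T07 and 0 lower, where 34.4% of all genes tested were higher and 31.8% lower. Yap1 was higher by 0.37 ± 0.07 on the log2 scale, at 164.1 against 124.0 CPM (edgeR adjusted p = 0.000193). Ankrd1 was higher by 2.82 ± 0.47 (edgeR adjusted p = 7.75e-05), a fitted 7.04-fold difference, while the means of 96.6 and 18.9 CPM had a ratio of 5.12. Its log2 difference was 3.47 without D2A1 tumour 1 and 2.08 without D2A1 tumour 4. For Cyr61 the difference was 0.09 ± 0.18, which the spread between tumours covers. Between 4T07 and EMT6, 4 of 9 were higher in 4T07 and 3 lower, beside 38.3% and 37.2% of all genes. Wwtr1 was 2.19-fold, Tead2 2.17-fold and Tead1 1.56-fold higher in 4T07 (edgeR adjusted p = 4.44e-09, 6.67e-08 and 3.67e-05), and Yap1 1.24-fold (edgeR adjusted p = 0.000463). Tead4, Tead3 and Amotl2 were lower in 4T07, with log2 differences of -0.89 ± 0.14, -0.82 ± 0.16 and -0.86 ± 0.16 (edgeR adjusted p = 2.32e-05, 0.000219 and 0.000197). These 3 genes did not overlap between the 2 lines.

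Between D2A1 and EMT6, 3 of 9 were higher in D2A1 and 4 lower, where 29% of all genes tested were higher and 30.3% lower. Wwtr1 was 2.04-fold, Tead2 2.24-fold and Tead1 1.60-fold higher in D2A1 (edgeR adjusted p = 4.44e-08, 1.89e-07 and 4.47e-05), so D2A1 and 4T07 shared this side of the comparison with EMT6. Ankrd1 was lower in D2A1, with a log2 difference of -3.23 ± 0.47, at 18.9 against 127.6 CPM (edgeR adjusted p = 2.64e-05); the difference was -3.88 without D2A1 tumour 1 and -2.49 without D2A1 tumour 4. Tead3, Tead4 and Amotl2 were lower too, with log2 differences of -0.74 ± 0.18, -0.70 ± 0.15 and -0.64 ± 0.17 (edgeR adjusted p = 0.00256, 0.000991 and 0.00455). Tead3 overlapped between D2A1 and EMT6, while Tead4 and Amotl2 did not. For Yap1 the D2A1 level minus that of EMT6 was -0.06 ± 0.07 and for Cyr61 -0.08 ± 0.18, neither of them past the threshold. Since each line had its own sequencing run and count table, these level differences cannot be told apart from differences between runs.

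Other genes of a widely used YAP/TAZ target signature, 18 in all without the 10 genes above, were called in both directions in each line. This list and those below were chosen with earlier results of these data known, so their counts and p-values are not independent evidence. In 4T07 6 of 14 tested rose and 5 fell, with a median log2 change of -0.08 beside -0.0033 over all genes. In D2A1 2 of 18 rose and 4 fell, with a median of -0.01, and in EMT6 9 of 17 rose and 4 fell, with a median of 0.15. Of all genes tested, 22.1% rose and 23.6% fell in 4T07, 14.9% and 14.7% in D2A1, and 24.1% and 25.1% in EMT6; the D2A1 counts lay near those shares. Nt5e, the gene of the ecto-enzyme CD73, rose in each line, by 0.82 ± 0.07, 1.13 ± 0.12 and 0.99 ± 0.25 in 4T07, D2A1 and EMT6 (edgeR adjusted p = 0.000149, 9.91e-06 and 0.00969), in 4 of 4 tumours each. Asap1, which encodes an ARF GTPase-activating protein, rose by 0.81 ± 0.08 in 4T07 and 0.58 ± 0.05 in EMT6 (edgeR adjusted p = 0.000232 and 2.74e-05). Its D2A1 change was 0.26 ± 0.12. Ccdc80, a matrix protein gene, rose by 1.18 ± 0.10 in 4T07 and 0.78 ± 0.11 in EMT6 and in D2A1 fell by 1.81 ± 0.39 (edgeR adjusted p = 0.00012, 0.000276 and 0.0038). F3, which encodes tissue factor, in 4T07 fell by 0.92 ± 0.19 and rose in EMT6 by 0.57 ± 0.06, and the receptor tyrosine kinase gene Axl in EMT6 fell by 0.35 ± 0.04 and in 4T07 fell by 0.41 ± 0.12. Igfbp3, which encodes an IGF-binding protein, in D2A1 fell by 4.99 ± 0.64 (edgeR adjusted p = 6.94e-05), in 4T07 fell by 1.76 ± 0.44 and in EMT6 fell by 1.54 ± 0.57. In D2A1 the size of the Igfbp3 change depended on the libraries and tool: the log2 change was -8.18 without tumour 1 and -6.26 with DESeq2. Some of these genes were barely counted in p27K high cells. Scaled by total count, Igfbp3 averaged 0.83 CPM there in D2A1, 1.08 CPM in 4T07 and 0.61 CPM in EMT6. Ccdc80 averaged 1.92 CPM in D2A1 and F3 2.42 CPM in 4T07. Igfbp3 did not pass without tumour 1 or 4 in 4T07 (edgeR adjusted p = 0.0728 and 0.0686) or without tumour 1, 2 or 4 in EMT6 (0.128, 0.0824 and 0.0962), nor did Axl without tumour 1 in 4T07 (0.0814). The gate change differed between the lines for 7 of the 18 genes, where 24.5% of all genes tested differed, among them Ccdc80, F3, Asap1 and Igfbp3 (edgeR adjusted p = 4.28e-05, 3.33e-05, 0.0243 and 0.0325); for Nt5e that p was 0.609.

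**Figure D5:**
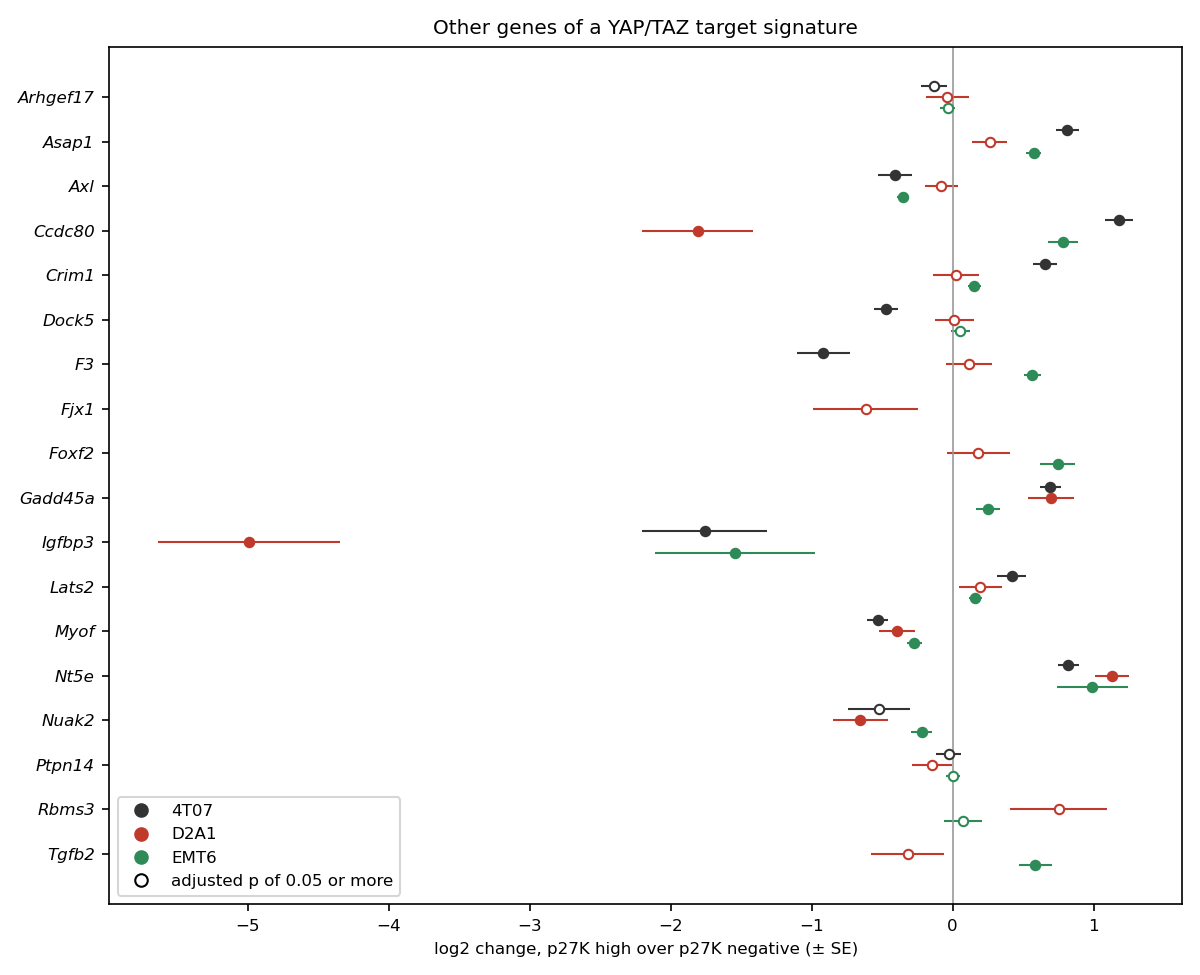
Log2 change of p27K high over p27K negative cells, with its SE, for 18 further genes of a YAP/TAZ target signature in each line where they were tested; filled points passed the test. Nt5e lies right of 0 in all 3 lines, while Ccdc80 lies right of 0 in 4T07 and EMT6 and left of 0 in D2A1.

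Upstream Hippo genes were called in both directions in each line. Of 31 listed regulators, 7 of 26 tested rose and 6 fell in 4T07, 3 of 29 rose and 4 fell in D2A1, and 7 of 26 rose and 4 fell in EMT6, with median log2 changes of 0.01, -0.10 and 0.06. The shares of all genes that rose and fell were 22.1% and 23.6% in 4T07, 14.9% and 14.7% in D2A1 and 24.1% and 25.1% in EMT6, so in 4T07 and D2A1 the counts lay near them. Fat1, a protocadherin gene, fell by 0.75 ± 0.14 in 4T07 and fell by 0.87 ± 0.15 in D2A1 (edgeR adjusted p = 0.0037 and 0.000831). Csnk1e and Btrc, a kinase and an F-box protein that act in the turnover of phosphorylated YAP, rose in 4T07 by 0.47 ± 0.08 and 0.43 ± 0.08, and Csnk1e rose in EMT6 by 0.31 ± 0.04. In D2A1 Ajuba, a LIM protein gene whose product holds back LATS kinases, fell by 0.80 ± 0.12 and the Hippo pathway kinase gene Map4k4 fell by 0.47 ± 0.11. In EMT6 the kinase gene Taok3 and the FERM protein gene Frmd6 rose by 0.52 ± 0.10 and 0.38 ± 0.06. The change differed between lines for 7 of 29 regulators tested, a share close to the 24.5% of all genes, among them Fat1, Ajuba and Frmd6 (edgeR adjusted p = 0.00443, 0.00424 and 0.00417).

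Ctgf and Cyr61 belong to the CCN family of secreted matricellular proteins. Of the other CCN genes, 2 of 3 tested rose in 4T07, 0 of 3 rose and 1 fell in D2A1, and 3 of 3 rose in EMT6, where 22.1%, 14.9% and 24.1% of all genes rose and 23.6%, 14.7% and 25.1% fell in the 3 lines. Wisp2 rose by 1.44 ± 0.15 in 4T07 and 1.18 ± 0.13 in EMT6, and Nov by 0.44 ± 0.12 and 0.85 ± 0.13. In D2A1 the Wisp2 change was 1.17 ± 0.53 and the Nov change 0.34 ± 0.19, which did not pass (edgeR adjusted p = 0.117 and 0.203). Both were higher in p27K high cells of 3 D2A1 tumours, and Wisp2 averaged only 2.44 CPM there (scaled by total count). Wisp1 rose in EMT6 by 0.28 ± 0.05 and in D2A1 fell by 0.85 ± 0.27. Nov in 4T07 did not pass without tumour 1, 3 or 4 (edgeR adjusted p = 0.0505, 0.0995 and 0.0547), nor Wisp1 in D2A1 without tumour 1, 2 or 3 (0.0847, 0.19 and 0.0649). The gate change differed between lines for 1 of the 3, Wisp1 (edgeR adjusted p = 0.0329). For Wisp2 and Nov that edgeR adjusted p was 0.695 and 0.213.

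Ctgf is also a known target of TGF-beta, and YAP and SRF share some targets, so a list of each was counted; their part in the values above was not tested. TGF-beta target and pathway genes rose in 8 of 14 tested and fell in 3 in 4T07, rose in 7 and fell in 0 in D2A1, and rose in 12 and fell in 1 in EMT6, with medians of 0.40, 0.38 and 0.40. Over all genes tested, 22.1%, 14.9% and 24.1% rose and 23.6%, 14.7% and 25.1% fell in 4T07, D2A1 and EMT6. Tgfbr3, the gene of the co-receptor betaglycan, rose in each line by 2.15 ± 0.11, 1.63 ± 0.12 and 0.67 ± 0.05, and the feedback gene Pmepa1 by 0.84 ± 0.08, 0.61 ± 0.16 and 0.66 ± 0.06 in 4T07, D2A1 and EMT6; in D2A1 it did not pass without tumour 1 (edgeR adjusted p = 0.0569). Ltbp2 and Ltbp3 belong to the family named latent TGF-beta binding proteins. They rose by 0.88 ± 0.11 and 0.81 ± 0.11 in D2A1 and by 0.55 ± 0.06 and 0.43 ± 0.07 in EMT6. In 4T07 Ltbp2 rose by 0.61 ± 0.13 but did not pass without tumour 1 (edgeR adjusted p = 0.0508). The Ltbp3 change in 4T07 was 0.12 ± 0.11. Tgfbi in 4T07 fell by 1.76 ± 0.17 and in EMT6 rose by 0.58 ± 0.09. Serum response factor (SRF) and its cytoskeletal targets were counted against the same shares: 0 of 11 rose and 3 fell in 4T07, 0 of 12 rose and 7 fell in D2A1, and 1 of 14 rose and 1 fell in EMT6, with medians of -0.18, -0.57 and -0.07. In D2A1 Srf fell by 0.80 ± 0.13, the smooth muscle actin gene Actg2 fell by 1.20 ± 0.17 and the tropomyosin gene Tpm1 fell by 0.59 ± 0.11. In 4T07 Acta2 fell by 1.51 ± 0.26, but averaged only 1.00 CPM (scaled by total count) in p27K high cells. Mkl1, the gene of the SRF coactivator MRTF-A, fell there by 0.41 ± 0.10 and Tpm1 fell by 0.30 ± 0.09. Tpm1 did not pass in 4T07 without tumour 1, 3 or 4 (edgeR adjusted p = 0.166, 0.077 and 0.152), nor Mkl1 without tumour 4 (0.0598). In EMT6 Fhl2 rose by 0.36 ± 0.07 and the filamin gene Flna fell by 0.23 ± 0.04. The change differed between lines for 5 of 14 SRF genes and 4 of 14 TGF-beta genes, beside 24.5% of all genes tested.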

How the data were processed

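Sorted cells were profiled by bulk RNA-seq; the deposited tables hold raw read counts per gene symbol, made by the sequencing provider per the labels' protocols. The submitters' processing notes name mm10 and DESeq2; which aligner, counter and strand setting were used is not stated in the labels. Symbols of the 4T07 table were matched without regard to case, 24038 to the other tables and 849 to RefSeq names, with 95 kept as they were.

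Gate changes were fitted per line with edgeR 4.0.16 (quasi-likelihood, R 4.3.3), TMM scaling, filterByExpr and tumour as a block, since both gates came from the same tumour per the labels; EMT6 columns were paired by their number, where the 2 gates deviated together with correlations of 0.16 to 0.474. In EMT6 tumour 4, the lowest, the p27K high library correlated best with another number, and the EMT6 pairing rests on the column numbers alone; without it the EMT6 list calls were 13, against 23. Calls used the Benjamini-Hochberg adjusted p over all genes tested, with a threshold of 0.05. All 10 genes passed the filter in each line. Differences in gate change between lines were tested as the gate-by-line interaction over 24 libraries, and levels between lines in the 12 p27K negative libraries. The 4 tumours of a line are separate tumours per the labels. CPM values use TMM over the 24 libraries jointly, while fitted gate changes use each line's own scaling, so the 2 can differ. Fitted level differences between lines use TMM over the 12 p27K negative libraries and are not ratios of mean CPM. The 2 lay well apart for Ctgf and Ankrd1 against D2A1. Per-length values use GENCODE vM21 exon lengths, and log2 levels a prior count of 2.

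The members and gene lists were chosen with earlier results of these data known. Named genes are the 10 members, Cdkn1b, Mki67 and Ptprc, the 3 called genes of each list and line with the smallest p, and the 3 genes closest to Ctgf and to Cyr61 in gate change with a mean of at least 5 CPM in each line; a named gene of the TGF-beta list is not reported here. Scripts were tested on simulated data. Alternatives were DESeq2 1.42.0, RLE size factors, scaling by total count, other filters, no tumour block, p27K high libraries for the levels, and leaving out each tumour.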

Additional observations from a re-analysis of the deposited data

Results flagged for a closer look

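Of 60 groups of 4 libraries (10 genes by line and gate), 3 held a library far from the other 3; chance flags about 1 in 20 groups. Ctgf was 32.0 CPM in the D2A1 p27K negative library of tumour 1 and 0.879 to 3.597 CPM in the others. Cyr61 was 1255 CPM in the 4T07 p27K high library of tumour 1 and 639.8 to 736.9 CPM in the others. Tead2 was 104.6 CPM in the D2A1 p27K negative library of tumour 2 and 114.3 to 114.6 CPM in the others, a small gap beside 3 close values.

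Amotl2 was higher in p27K high cells in 4 of 4 tumours of 4T07 and 4 of 4 of EMT6, and in 0 of 4 of D2A1. Tead4 was higher in 4 of 4 tumours of EMT6 and in 0 of 4 of 4T07. These differences were not tested, because the genes were chosen with this contrast known.

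Among the listed genes named in the text, the test of a different gate change between lines (edgeR, gate-by-line interaction) passed for 15. It did not pass for Csnk1e, Btrc, Map4k4, Taok3, Nt5e, Axl, Nov, Wisp2, Actg2, Fhl2, Flna, Pmepa1 and Ltbp2. Of all genes tested, 24.5% passed. The named genes were picked by the smallest gate p in each line of these data, so the 15 cannot be weighed against that share. The adjusted p was 4.28e-05 for Ccdc80, 3.33e-05 for F3, 0.0243 for Asap1 and 0.0325 for Igfbp3 in the target signature. It was 0.00443 for Fat1, 0.00424 for Ajuba and 0.00417 for Frmd6 among Hippo regulators, and 0.0329 for Wisp1. In the SRF list it was 0.00895 for Mkl1, 0.00112 for Acta2, 0.0103 for Tpm1 and 0.00586 for Srf. In the TGF-beta list it was 7.27e-06 for Tgfbi, 4.65e-06 for Tgfbr3 and 0.00618 for Ltbp3.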

How the results depend on the processing

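Without the tumour block (no pairing), Hippo and target list genes called dropped to 15 in 4T07 and 13 in EMT6, against 23 in each with the block, and genes whose gate change differed between lines to 1607, against 3332. Leaving out each tumour in turn gave 3698 (without tumour 1) to 7727 (without tumour 2) called genes in 4T07, against 5868 in all tumours. In D2A1 it gave 2444 (without tumour 1) to 5051 (without tumour 3), against 3794. The list genes then numbered 13 to 28 in 4T07 and 7 to 16 in D2A1, where 13 were called in all tumours. Without 4T07 tumour 2 the log2 changes of Yap1, Wwtr1 and Tead4 were 0.22, -0.11 and -0.24, against 0.15, 0.02 and -0.35. The p27K high library of that tumour had the fewest detected genes of 4T07, 13500, and the part of this was not tested. Scaling by total count shifted the median of all genes in 4T07 to -0.138 on the log2 scale and the share of calls that were higher to 33.2%, against 48.3% with TMM; Cyr61 in 4T07 was then 0.25 and Tead1 -0.08. Over all alternatives, 2 to 5 of the 10 genes were called higher in 4T07, 0 to 1 in D2A1 and 3 to 5 in EMT6, and 0 to 1, 2 to 3 and 0 to 3 were called lower. No gate change of the 10 genes that was called reversed under any alternative. Ctgf in D2A1 ran from -0.56 without tumour 1 to -2.11 without tumour 2 and was filtered out at 5 CPM in 4 libraries.

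Among the 9 tested genes, levels turned sign only where they had not passed the test; for Ctgf the 4T07 minus EMT6 difference was 0.61 in p27K high and -0.52 in p27K negative libraries, and the 4T07 minus D2A1 difference 8.33 and 5.03. With p27K high libraries the 4T07 minus D2A1 difference was -0.11 for Wwtr1, 0.29 for Tead1, 0.10 for Tead2 and 0.59 for Amotl2 (edgeR adjusted p = 0.00412 for Amotl2). In the same libraries Ankrd1 was 4.62 between 4T07 and D2A1 and -4.77 between D2A1 and EMT6, Amotl2 -1.46 between D2A1 and EMT6, and Tead4 -1.54 between 4T07 and EMT6. With scaling by total count the D2A1 minus EMT6 difference was 0.10 for Yap1 and 0.084 for Cyr61. Leaving out 1 library gave -0.18 to 0.22 for Cyr61 and -0.093 to 0.012 for Tead1, and -0.17 to 0.084 for Tead3, between 4T07 and D2A1, and -0.26 to 0.14 for Cyr61 between 4T07 and EMT6; Amotl2 passed between 4T07 and D2A1 without 4T07 tumour 1, at -0.42 (edgeR adjusted p = 0.00986). Of 563 alternatives for named list genes in the lines where they were called, 519 kept the call and 44 lost it; Frmd6, Nov and Tpm1 in 4T07, Frmd6 and Wisp1 in D2A1 and Igfbp3 in EMT6 lost it in several, and F3, Flna, Frmd6, Nov, Taok3, Tgfbi and Wisp1 in EMT6 without the block. The causes were not tested. The shallow D2A1 p27K negative libraries limit Ctgf and Ankrd1 there.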
